A study of Arabidopsis thaliana with 4 samples.

Results

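The genes described here are locus-named genes of *Arabidopsis thaliana* that were expressed in control seedlings and much weaker after induction of RKD4. They were taken from an Affymetrix array as probe sets that the platform annotation assigns to exactly 1 gene carrying only a locus number (AT1G to AT5G). A member had both control signals at 100 or more, and its lower control signal was at least 2 times its higher RKD4-induced signal. A set of 11 loci was left out by the same rule, 9 of which met these limits. This gave 175 member probe sets for 175 different genes, out of 11933 probe sets with a single locus-named gene and 22746 probe sets tested. The members were selected on the signals of both groups, so their difference between the groups is described below and is not tested.

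Gene expression was measured in whole Col-0 seedlings on 4 arrays, 2 per group, each from a pool of 60 seedlings. Control seedlings carried the 35S-GVG transgene, and the induced seedlings carried UAS-RKD4 together with 35S-GVG. GVG is a chimeric transcription activator that dexamethasone switches on, here driven by the broadly active 35S promoter. All 4 pools were moved to 1 µM dexamethasone on day 2 after germination and were harvested 24 h later, on day 3, so both groups share GVG and the drug. No seedlings without dexamethasone are among the samples, and the labels do not say how many independent lines were used. A lasting difference between the lines and an effect of RKD4 cannot be told apart. Pools of 1 group are labelled as biological replicates, but whether they came from separate sowings is not stated, and their spread may be technical in part.

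RKD4 is a transcription factor of the plant RWP-RK family, known for its role in the early embryo, and its relatives act in the egg cell. An Arabidopsis locus number gives the chromosome and the order of genes along it, so AT4G30450 and AT4G30460 are close neighbours on chromosome 4. The gene table used here holds a descriptive name for only AT4G33150 and AT3G23090 among the members, and all 175 are listed there as protein-coding. For the rest no role is stated, and the genes are ordered below by level and position.

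Median signals of single arrays ran from 175 to 185, and with 2 arrays per group all values below have limited precision. Across all probe sets, limma with Benjamini-Hochberg adjustment called 4954 (21.8%) changed at an adjusted p under 0.05, of which 2673 were lower (11.8%) and 2281 higher (10%). Which direction had more calls depends on the setting, since median centring gave 2283 lower and 2578 higher. The count was 2223 without control replicate 1 (895 lower, 1328 higher), 2144 without control replicate 2 (899 and 1245), 1835 without induced replicate 1 (752 and 1083) and 1907 without induced replicate 2 (812 and 1095). RKD4 itself has no named probe set in the tables used, so its induction could not be read. Photosynthesis genes were read as a sign of green tissue, which cannot tell seedlings from other green material. LHCB4.1, RCA, PSAN and PORB had a summed signal of 78319 and 88485 on the control arrays and 75365 and 71920.1 on the induced arrays. PORB, a small part of that sum, fell from 1568 and 1343 to 998 and 974, a log2 change of -0.54 ± 0.11. LHCB4.1, RCA and PSAN did not pass the test. The root hair genes EXPA7 and EXPA18 had a summed signal of 1695 and 1311 on the control arrays and 827 and 882 on the induced arrays, and both fell. The egg cell genes EC1.2 and EC1.5 had a summed signal of 20.3 and 3.71 on the control arrays and 2403 and 2133 on the induced arrays. EC1.5 alone rose, from 1.296 and 1.62 to 2402 and 2106, while EC1.2 read 19.0 and 2.09 against 0.714 and 26.5 and did not pass the test. The part of such cells in the members' values was not tested. In RNA from whole seedlings, fewer cells of a type and less RNA per cell cannot be told apart.

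The members were spread over a wide range of control levels. Their mean control signal went from 104 to 3978 with a median of 411, and their mean induced signal went from 12.2 to 1377 with a median of 146. The median member kept 37.1% of its control signal, and single members kept up to 47.1%. All 175 together gave a summed signal of 104001 and 103518 on the control arrays and 37680.2 and 37820 on the induced arrays. That sum was 0.633% and 0.617% of all signal in control seedlings and 0.228% and 0.232% in induced seedlings. The replicate pools of each group were thus close to each other in the sum, while the groups lay far apart, as the rule requires.

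**Figure D1:**
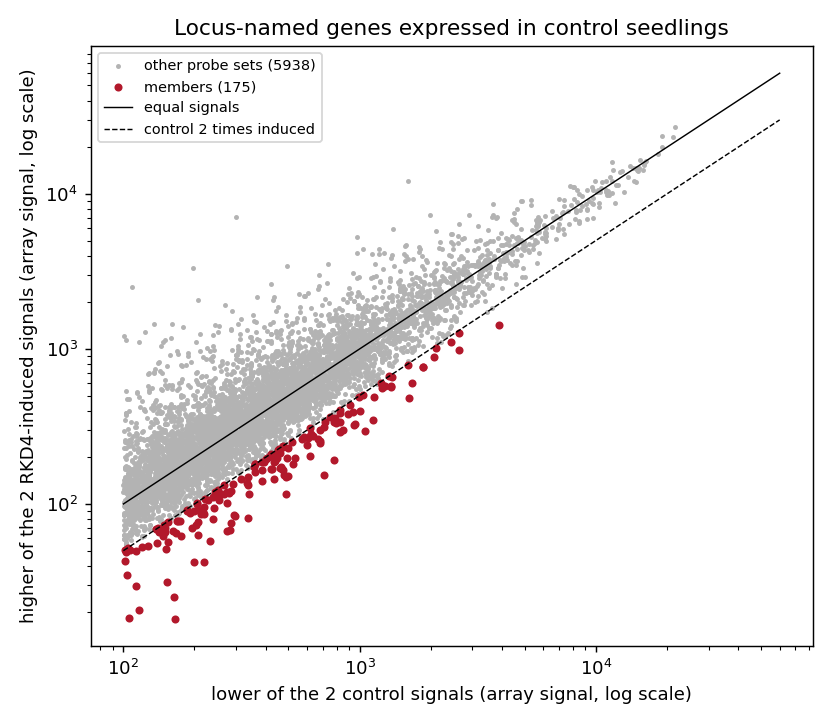
The lower of the 2 control signals (horizontal) is plotted against the higher of the 2 RKD4-induced signals (vertical), both on log scales, for probe sets of locus-named genes with both control signals at 100 or more. The 175 members in red lie under the dashed line, where the control signal is 2 times the induced signal, and the 5938 other probe sets in grey lie above it.

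Members were about as frequent at most control levels. Of 6113 probe sets of locus-named genes (6088 genes) with both control signals at 100 or more, the 175 members are 2.86%, a share that the rule itself sets. Counted in probe sets, with a mean control signal under 200 the share was 2.75% (36 of 1311), between 200 and 500 it was 3.15% (73 of 2320) and between 500 and 1000 it was 3.11% (40 of 1286). Between 1000 and 2000 it was 2.95% (20 of 678). At 2000 or more it was 1.16% (6 of 518), the lowest of these shares. By chromosome, the share ran from 2.32% on chromosome 5 (35 of 1508) and 2.66% on chromosome 4 (23 of 866) to 3.00% on chromosome 1 (48 of 1600), 3.12% on chromosome 3 (39 of 1249) and 3.37% on chromosome 2 (30 of 890). Probe sets of genes that carry a symbol met the same numeric limits in 4.23% of cases (45 of 1063), against 3.00% of those of locus-named genes when the left-out loci are included (184 of 6124). These shares are descriptions and were not tested against each other. Of the same 6124 probe sets, 242 had a lower induced signal at least 2 times the higher control signal, beside the 184 that were lower. Turned around fully, with both induced signals instead of both control signals at 100 or more, the limits were met by 422 of the 11933 locus-named probe sets.

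On the log2(signal + 32.4) scale, where 32.4 is the 25th percentile of all signals, the members' change from control to induced ran from -2.65 to -0.76 with a median of -1.23. The same median was -0.13 over the 6113 locus-named probe sets with both control signals at 100 or more and -0.08 over all probe sets. In 33 members the change was below -1.5, in 124 it was between -1.5 and -1, and in 18 it was above -1. The fit over all probe sets called 174 of the 175 members lower, beside 11.8% of all probe sets and 16.6% of those 6113 probe sets. Nothing is read from that count, because the rule used the same signals. The 1 member not called, AT1G62520, had control signals of 102 and 111 but induced signals of 50.3 in replicate 1 and 2.66 in replicate 2. Its induced pair differed 18.9-fold, the widest pair among the members.

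The gap between groups was narrow for most members. The ratio of the lower control to the higher induced signal was under 2.5 for 115 members and at least 3 for 27, at least 4 for 14 and at least 5 for 5. Just inside the limit, at a ratio of 2.01, AT2G44760 had control signals of 454 and 472 and induced signals of 226 and 210. AT2G32150 read 1332 and 1522 in control and 665 and 592 in induced seedlings, and AT4G30670 read 657 and 616 in control and 308 and 267 in induced seedlings. Just outside it, AT3G55920 read 448 and 496 against 225 and 223, a ratio of 1.996. AT5G25770 had a ratio of 1.99 and AT5G38020 one of 1.986. The genes on either side of the limit thus differed little in their gap between groups.

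Within groups the replicate pools were close for most members, which the rule favours because it compares the lower control with the higher induced signal. The larger over the smaller control signal had a median of 1.103, and 1.112 over all 6113 locus-named probe sets with both control signals at 100 or more. For the induced signals it was 1.130 for the members and 1.122 for those probe sets. Control replicate 1 was the higher of the control pair in 84 members, and induced replicate 1 was the higher of the induced pair in 90. The control pair differed over 1.5-fold in 5 members, AT5G62210, AT1G67860, AT1G14240, AT2G18210 and AT3G46700. The induced pair did so in 24 members. Several of these had an induced signal near the weak end of the array, among them AT1G62520, AT5G62210, AT1G33055 and AT3G17640.

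The members with the widest gap between groups had low to moderate signals in control seedlings and close to the weakest signals after induction. Induced signals under 32.4, the 25th percentile, may be background, so ratios, shares and ranks that rest on them give the signals as deposited and not the size of a change. AT1G33055 had the highest deposited ratio, 9.08, and its control signals were 181 and 165 and its induced signals 6.23 and 18.1. AT5G62210 followed with control signals of 388 and 164 and induced signals of 25.1 and 3.92. Its mean induced signal was 5.25% of control as deposited, and its control pair differed 2.36-fold and its induced pair 6.39-fold. AT5G59680 read 106 on both control arrays and 18.4 and 9.80 on the induced arrays. AT3G32030 read 137 and 116 in control and 12.6 and 20.6 in induced seedlings, and its probe set is of the type (_s_at) that can bind more than 1 transcript. These 4 genes, with AT1G76470 and AT1G67865, are the 6 members whose induced signals were both under 32.4. AT1G76470 read 169 and 153 against 31.6 and 27.4, and AT1G67865 read 113 and 116 against 19.2 and 29.7. Their log2 changes depend on the value added before taking logs: AT1G33055 lay at -2.22 ± 0.21 (SE, n = 2 arrays per group) with 32.4 added and at -3.89 with 1 added, AT5G62210 at -2.65 ± 0.40 and -4.48, and AT5G59680 at -1.58 ± 0.19 and -2.89. Likewise AT3G32030 lay at -1.70 ± 0.19 and -2.89, and AT1G67865 at -1.38 ± 0.19 and -2.22.

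**Figure D2:**
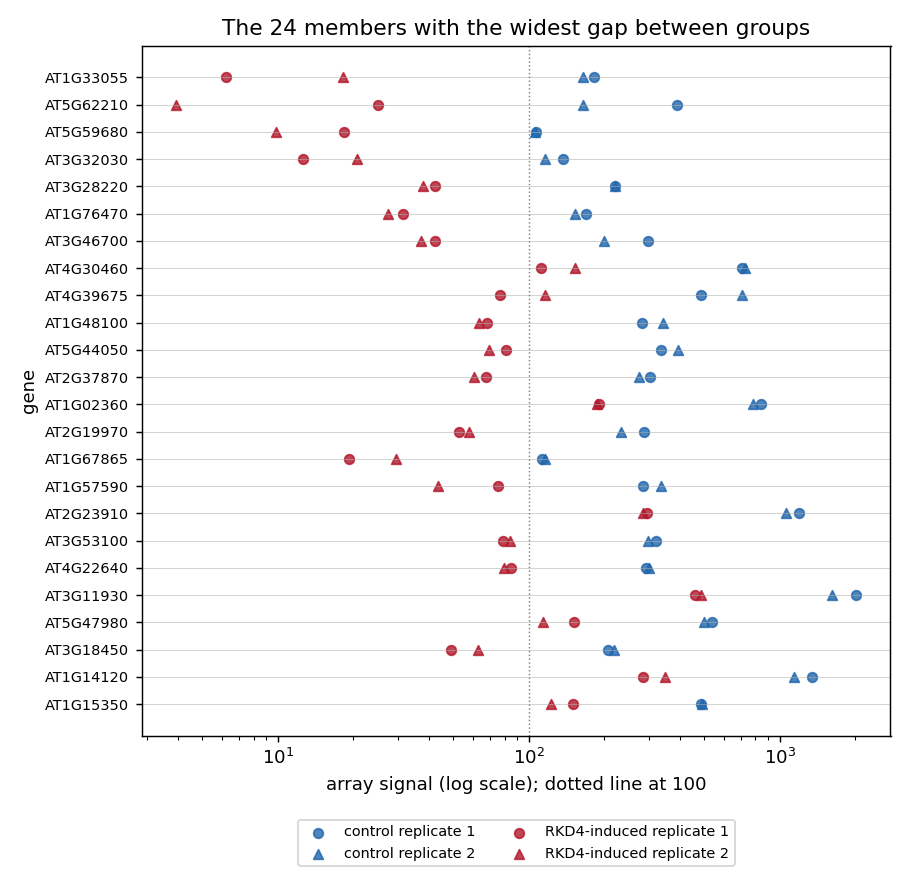
Array signals (horizontal, log scale) of the 24 members with the highest ratio of the lower control to the higher induced signal, 1 row per gene, with control arrays in blue and RKD4-induced arrays in red. Control signals lie between 106 and 2021 and induced signals between 3.92 and 485, and in each row both red points lie left of both blue points.

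The next members started from a clear control signal and still read above 32.4 on both induced arrays. AT4G30460 had control signals of 709 and 726 and induced signals of 111 and 153, which is 18.4% of control and a log2 change of -2.20 ± 0.16. AT4G39675 read 487 and 704 in control and 76.5 and 116 in induced seedlings, or 16.2%. AT1G02360 read 845 and 779 against 191 and 187, or 23.3%. These 3 genes were picked by their ratio, so a wide margin between the groups is given. Among them the control arrays of AT4G39675 were the least alike. AT3G28220 read 220 and 221 against 42.3 and 37.7, and AT3G46700 read 299 and 199 against 42.4 and 37.0. AT1G48100 read 283 and 342 against 67.8 and 63.4. In AT5G44050 the signals were 336 and 395 against 81.3 and 69.6, and in AT2G37870 they were 304 and 275 against 67.2 and 60.3. Each of these 5 genes kept between 15.9% and 22.1% of its control signal. AT2G19970 read 288 and 233 against 52.7 and 57.5, and AT1G57590 read 284 and 337 against 75.3 and 43.3. In all, 19 members kept less than 25% of their control signal and 58 kept more than 40%.

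The remaining genes of the 24 widest gaps kept between 25.6% and 27.9% of their signal. AT2G23910 went from 1195 and 1058 in control to 296 and 285 in induced seedlings, and AT3G11930 from 2021 and 1613 to 460 and 485. AT1G14120 went from 1344 and 1137 to 285 and 349. These 3 are the genes of the 24 with a mean control signal above 1000, and they kept 25.8%, 26.0% and 25.6%. At lower levels, AT5G47980 read 535 and 499 against 151 and 114, and AT1G15350 read 486 and 490 against 150 and 122. AT3G53100 read 322 and 298 against 78.6 and 84.0, and AT4G22640 read 294 and 301 against 85.1 and 79.5. AT3G18450 read 206 and 219 against 48.9 and 62.8. The shares kept by AT5G47980, AT1G15350, AT3G53100, AT4G22640 and AT3G18450 were 25.6%, 27.9%, 26.2%, 27.7% and 26.2%.

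The 6 members with the highest control signals kept between 29.6% and 44.8% of them, on both sides of the median of all members. Signals of different probe sets do not rank transcripts by abundance, since each probe set binds with its own strength. AT1G06640 had control signals of 4049 and 3906 and read 1426 and 1328 in induced seedlings, which is 34.6% of control. AT2G05540 read 2640 and 3861 in control and 942 and 980 in induced seedlings, or 29.6%, with the wider spread between its control pools. AT4G19880 read 2780 and 2646 against 1123 and 1265, or 44.0%. AT1G72160 read 2563 and 2441 against 1111 and 1029, or 42.8%. AT5G23830 read 2364 and 2113 against 996 and 1011, or 44.8%, and AT5G37990 read 2253 and 2058 against 890 and 666, or 36.1%. In these 6 genes the value added before logs made little difference, with log2 changes of AT1G06640 at -1.51 ± 0.10 with 32.4 added and -1.53 with 1 added. Over all members, the mean induced signal was at least 500 in 17, between 100 and 500 in 89 and under 100 in 69.

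**Figure D3:**
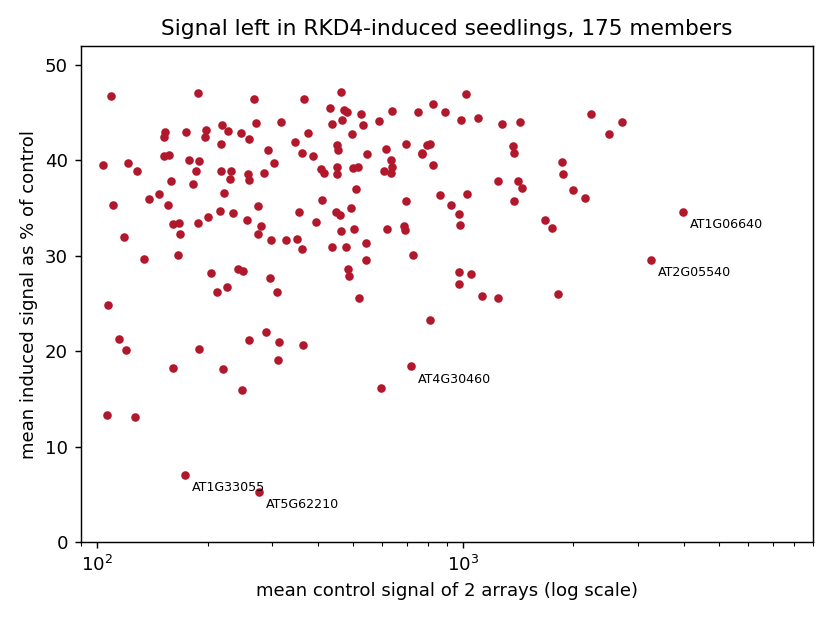
The mean RKD4-induced signal as a percentage of the mean control signal (vertical) is plotted against the mean control signal (horizontal, log scale) for the 175 members, 1 point each. Most points, 137 of 175, lie above 30%, and the lowest points, AT1G33055 (7.04%) and AT5G62210 (5.25%), rest on induced signals under 32.4.

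Both members with a descriptive name in the gene table lay in the middle of the group. AT4G33150 is LKR/SDH there, the lysine-ketoglutarate reductase and saccharopine dehydrogenase, an enzyme with both activities that starts the breakdown of lysine. It had control signals of 425 and 494 and induced signals of 168 and 147, or 34.3% of control, with a log2 change of -1.37 ± 0.15. AT3G23090 is WDL3, a member of the WAVE-DAMPENED2-like family of proteins that bind microtubules. It read 498 and 591 in control and 212 and 231 in induced seedlings, or 40.6%, with a log2 change of -1.18 ± 0.14. In both genes the pools of a group differed by at most 1.19-fold. They were picked out for their annotation after the values were seen.

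For 2 members a further probe set of the same single gene was measured, which the rule did not use. AT1G22330 read 298 and 286 in control and 119 and 121 in induced seedlings on its member probe set (255962_at). On its other probe set (255969_at) it read 193 and 138 against 79.9 and 95.7. The groups did not overlap there, with the induced signals lower, which was also so for 37% of all probe sets (8416 of 22746). The log2 change on that probe set was -0.71 ± 0.21, with an adjusted p of 0.0564 in limma, and did not pass the test. AT1G31710 read 953 and 829 against 406 and 397 on its member probe set (246601_at). Its other probe set (246602_at) was weak, with 37.8 and 66.5 against 28.5 and 40.8, where the groups overlapped. The log2 change there was -0.32 ± 0.23 and did not pass (adjusted p 0.387 in limma). On the second probe set both values were negative, and both were smaller than on the member probe set.

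Some members are direct neighbours of each other along the chromosome. Among the 175 genes, 8 have another member as the next gene, in 4 pairs. AT4G30450 read 362 on both control arrays and 116 and 180 on the induced arrays, beside AT4G30460, one of the strongest reductions given above. AT5G23840 read 437 and 469 against 187 and 189, beside AT5G23830. They kept like shares of their control signal, 41.6% and 44.8%. AT4G34215 read 516 and 532 against 252 and 218, and AT4G34220 next to it read 445 and 459 against 150 and 199. AT1G67860 read 103 and 166 against 30.9 and 48.8, next to AT1G67865. AT1G67860 and AT1G67865 were both weak, and the control signals of AT1G67860 differed 1.61-fold. AT1G67760, which read 175 and 146 against 67.5 and 39.7, lies beside the left-out AT1G67750, which read 2529 and 2354 against 976 and 1156. Neighbouring genes of similar sequence can share array signal, and this was not tested.

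A wider window, chosen after the values were seen, put 25 members into 12 runs in which each lies within 5 protein-coding genes of the next. The run on chromosome 4 from AT4G30450 to AT4G30490 holds 3 members. AT4G30490 read 493 and 505 in control and 193 and 197 in induced seedlings. Between these members, AT4G30470 did not pass the test, at -0.34 ± 0.17, while AT4G30500 beyond them fell by 0.87 ± 0.13, a call lost in 2 of 4 fits with an array left out (adjusted p up to 0.0513 in limma). A short way before the run lies TET9, a tetraspanin gene, which went the other way and rose by 2.38 ± 0.20.

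On chromosome 5, AT5G37990 and AT5G38030 lie 4 protein-coding genes apart, and AT5G38030 read 1088 and 854 in control and 298 and 227 in induced seedlings. Of the genes around them, AT5G37980 fell by 1.09 ± 0.24 and AT5G38020, just outside the limit, fell by 1.37 ± 0.24. AT5G38040 on the far side lay at 0.81 ± 0.24 and did not pass. With single arrays left out, AT5G37980 lost its call in 3 of 4 fits (adjusted p up to 0.138 in limma) and AT5G38020 in 2 (up to 0.0824). On chromosome 3, AT3G57010 read 1820 and 1668 against 544 and 605, and AT3G57030 read 1248 and 1496 against 419 and 563. AT3G57020 between them read 7918 and 7291 against 5940.3 and 5398 and fell by 0.42 ± 0.11. That fall lost its call with median centring (adjusted p 0.0641 in limma) and in each of the 4 fits with an array left out (adjusted p up to 0.188). On chromosome 1, AT1G06620 read 174 and 138 against 68.6 and 41.6, and AT1G06640 is the member with the highest control signal. AT1G06630 between them lay at 0.24 ± 0.19 and did not pass. Over all 12 runs, 13 of the 25 genes lying between members were measured. Of these, 2 fell, AT5G38020 and AT3G57020, and 0 rose (limma, adjusted p under 0.05). At an unadjusted p under 0.05, 3 of these 13 were lower and 1 was higher in induced seedlings. Over all 13333 genes with a named probe set, 10.4% fell and 9.59% rose at the adjusted threshold. Genes between members are by definition not members, so nothing is read from these counts.

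**Figure D4:**
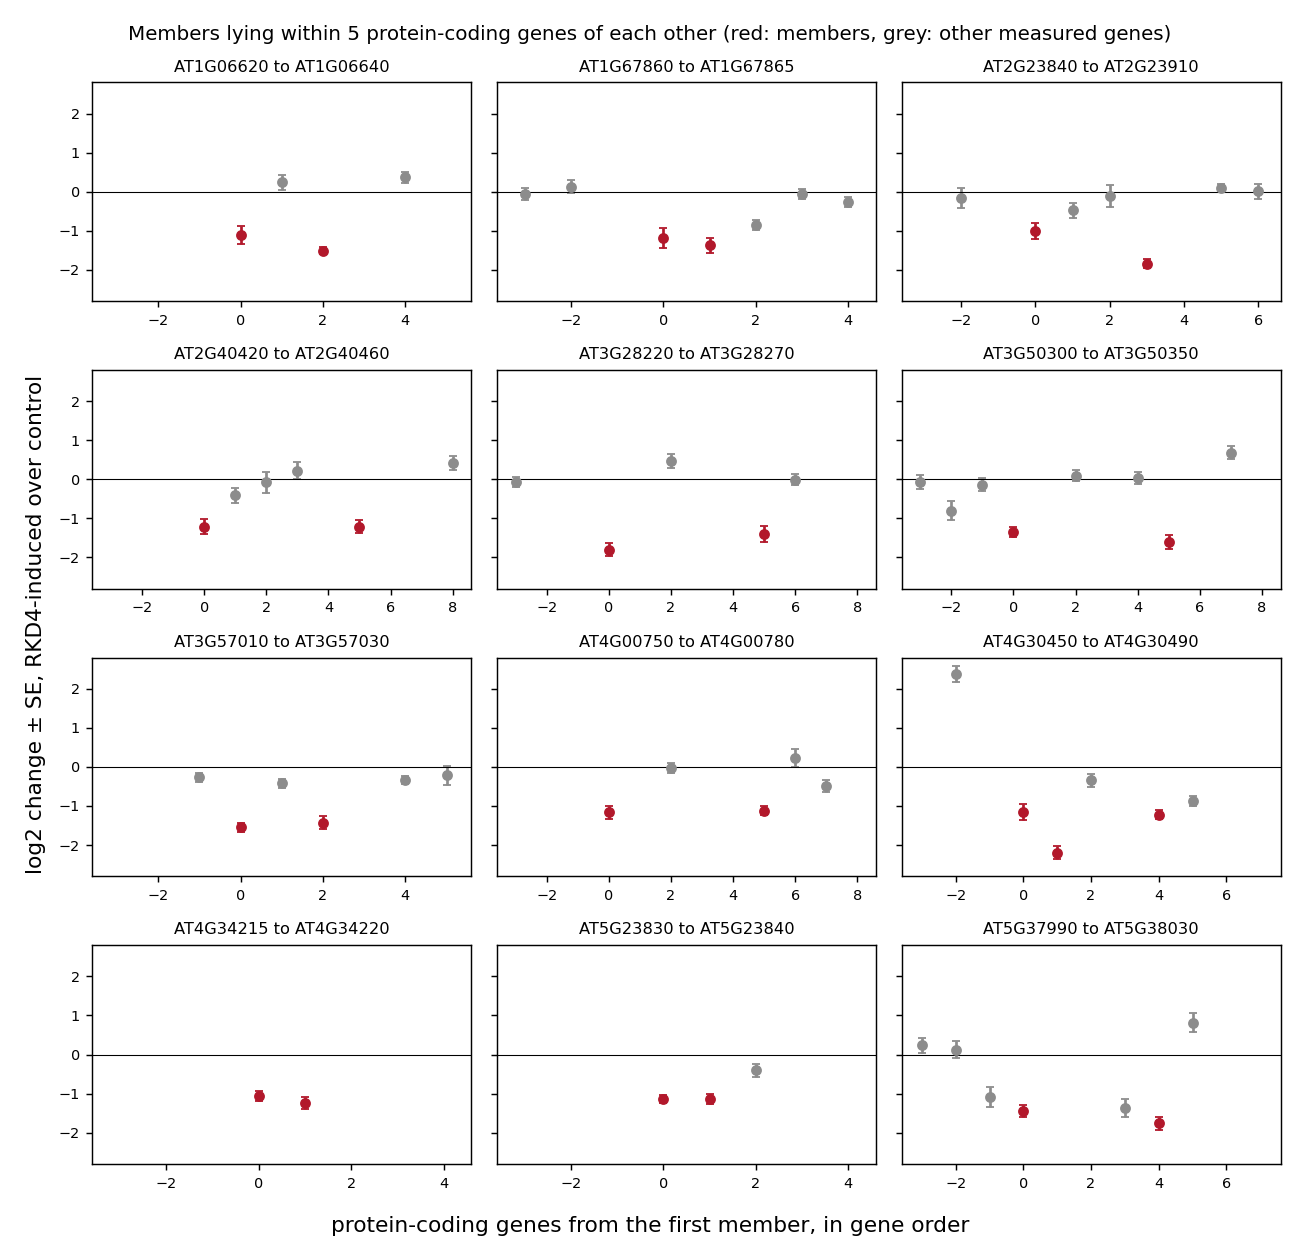
Log2 change ± SE of RKD4-induced over control (vertical) for measured genes in and around the 12 runs, in order of protein-coding genes from the first member of each run (horizontal), with members in red and other genes in grey. Members lie below 0 by the rule, while the grey genes between them lie closer to 0, apart from AT5G38020 in the last panel.

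The genes directly beside the members were a measure that the rule did not use, and their changes are given here beside those of all genes. Next to the 175 members lie 348 genes, of which 149 have a named probe set. Of these, 25 fell (16.8%) and 14 rose (9.40%), but 8 of the 25 are members and 1 is AT1G67750, which the rule leaves out. Without these 9 genes, 16 of 140 fell (11.4%) and 14 rose (10%). Over all 13333 genes with a named probe set, 10.4% fell and 9.59% rose. That background keeps the members, which the 140 leave out, so falls are not compared on like sets of genes. Whether the shares differ was not tested. With the replicate number as a block, 25 of the 140 fell (17.9%) against a background of 14.02%, and 14 rose (10%) against 11.4%. The median log2 change of the 140 was -0.13, against -0.07 over all genes. With single arrays left out, where fewer calls are made, 5 fell without control replicate 1, 3 without control replicate 2, and 5 without induced replicate 1 or 2. The background then fell to between 2.89% and 3.28%, and the neighbours lay between 2.14% and 3.57%. For rises the background was between 4.70% and 5.67% in these fits, and the neighbours lay between 4.29% and 6.43%.

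Some single neighbours moved strongly, and they are named here after their values were seen. AT5G07040 rose from 74.0 and 78.5 in control to 1086 and 911 in induced seedlings, a log2 change of 3.24 ± 0.14 (adjusted p 0.000192, limma). It lies beside the member AT5G07030, which read 2130 and 1597 in control and 785 and 701 in induced seedlings. The gene on the other side, AT5G07020, rose by 0.43 ± 0.10. Adjacent genes here thus moved in opposite directions. AT1G33055, the member with the highest deposited ratio, also lies between genes that rose: AT1G33050 went from 376 and 432 to 1137 and 1121, a log2 change of 1.42 ± 0.11, and NAC014, a NAC-domain transcription factor gene, rose by 0.80 ± 0.15. CYP71B6, a cytochrome P450 gene beside AT2G24170, rose by 1.07 ± 0.13, and AT5G12120, beside AT5G12110, by 1.15 ± 0.12. In the other direction MYBC1, a MYB-type transcription factor gene beside AT2G40960, fell by 0.98 ± 0.10, from 1004 and 1008 to 513 and 478. AT1G67870 fell by 0.85 ± 0.13 and extends the pair AT1G67860 and AT1G67865 by a gene. With single arrays left out, AT5G07040, AT1G33050, CYP71B6, AT5G12120 and MYBC1 kept their calls in all 4 fits. AT1G67870 lost its call in 2 of them (adjusted p up to 0.0567), and NAC014 (up to 0.107) and AT5G07020 (up to 0.143) lost theirs in all 4.

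**Figure D5:**
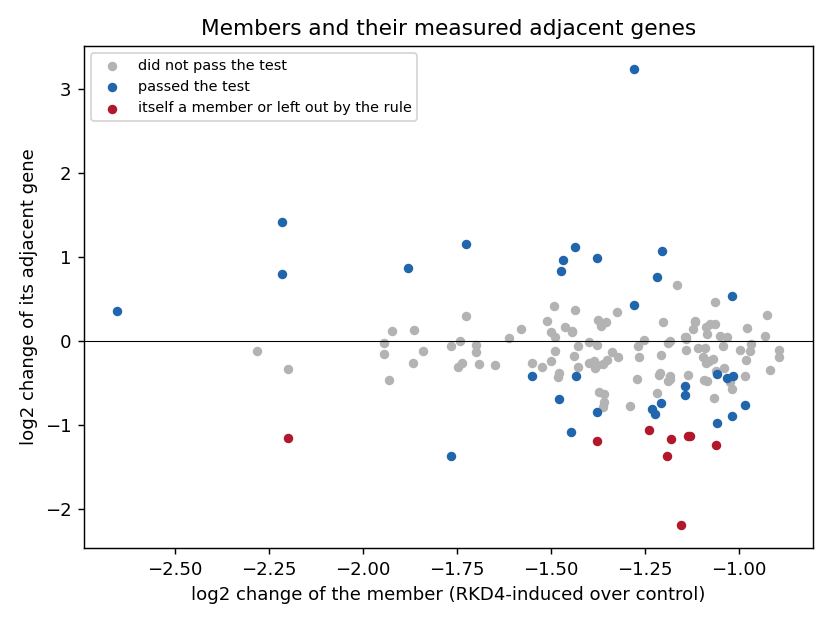
The log2 change of each measured gene directly beside a member (vertical) is plotted against the log2 change of that member (horizontal). Neighbours that passed the test (blue) lie on both sides of 0, with AT5G07040 highest at 3.24, and the red points are neighbours that are members themselves or were left out by the rule.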

How the data were processed

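Biotin-labelled RNA of 4 seedling pools was read on Affymetrix 3' expression arrays, per the labels' protocols. Seedlings were kept at 23 °C under 16 h light and 8 h dark. Each deposited value is a linear intensity, 1 signal per probe set, made by the authors with GCOS, Affymetrix's operating software, per the submitters' processing notes. The sources used here do not give its version, settings or genome build, so coordinates are left out. A 2% trimmed mean ran from 494.7 to 495.0 over the arrays, and no further scaling was applied.

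Of 22810 probe sets, 64 AFFX controls were left out. The group difference in log2(signal + 32.4) was estimated in limma 3.58.1 (R 4.3.3) without covariates, using a mean-variance trend and Benjamini-Hochberg adjustment over 22746 probe sets at 0.05, with 2 residual degrees of freedom and 4.12 added by moderation. Exact permutation of 2 against 2 arrays reaches p = 0.333 at best and was left out. On simulated data for this comparison, with 22746 probe sets, 100 were changed 2-fold and 100 were changed 4-fold, both in signal + 32.4. The fit found 87 of 100 and 100 of 100 of these, with 22 false calls. In weak probe sets such a step is a larger change of the signal itself. Noise was drawn independently for each probe set, and far fewer probe sets were changed than were called in the data.

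Genes came from the platform annotation; 174 members matched the TAIR10.1 gene table by gene identifier and the other by locus number. Adjacent genes are the next on each side in that table, and a gene stands for its probe set of highest mean. The members and lists were chosen with earlier results of these data known. Named are the 24 highest ratios, the 6 highest control means, the 3 members nearest the limit and the 3 genes just outside it, and members with a further probe set or next to another member. Other names, the runs and the added settings for neighbours were chosen after the values were seen. Families by product name, promoter motifs and protein features were planned and not run, since the tables used hold no product names or sequences. Marker lists had 2 of 13 root hair, 4 of 15 photosynthesis, 3 of 5 stomatal and 2 of 5 egg cell genes measured, and 0 of 9 endodermis, 0 of 3 root cap and 0 of 8 vascular genes. Both root hair genes and 1 photosynthesis gene fell, and 1 egg cell gene rose. Alternatives were quantile normalization, median centring, other pseudocounts, a filter on weak signal, a fit without the variance trend, a replicate block, other limits in the rule and leaving out each array.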

Additional observations from a re-analysis of the deposited data

How the results depend on the processing

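The number of members depends most on the limits of the rule. It was 590 with a ratio of at least 1.5 and 27 with a ratio of at least 3, 222 with control signals of at least 50 and 134 with at least 200. After quantile normalization 142 genes met the rule and after scaling to equal medians 134, all of them among the 175. With an array left out the rule asks less of each gene, and between 251 and 308 genes met it. The count of changed probe sets fell to between 1835 and 2223 with an array left out, and lay between 4334 (no variance trend) and 6301 in the other settings. Of the 175 members between 131 and 136 were called with an array left out, and 174 or 175 in the other settings. No member could change sign with an array left out, because the rule puts both control signals above both induced signals. The same 16 members lost their call in all 4 cases, and had a mean control signal between 104 and 228. Among the 40 members named by the criteria listed above, 280 values in settings with all arrays kept direction and threshold. With an array left out, AT5G62210, AT1G67865, AT1G67860 and AT4G30450 lost the threshold in some fits. So did AT1G06620, AT1G67760, AT1G14240, AT2G40960, AT2G18210 and AT3G17640, which are named in the text for other reasons and are not among the 40. The log2 change of AT1G06620 ran from -1.34 to -0.89 with an array left out. These fits have fewer degrees of freedom, which alone can end a call. Same-numbered arrays deviated together with a correlation of 0.0807, and the labels give no pairing. With the replicate block the count went to 6301 from 4954. The block called 175 members instead of 174 (it added AT1G62520) and changed no call of the 40 members named by the criteria. Of the 140 neighbours that are neither members nor left out, 11 fell with median centring (7.86%, background 8.81%). With the replicate block 25 fell (17.9%, background 14.02%), and 24 of the 95 left by the filter on weak signal did (25.3%, background 21.7%). These backgrounds keep the members. With protein-coding genes alone as neighbours, 17 of 168 fell and 16 rose. The causes were not tested. Signal over background limits the 12 members with an induced signal under 32.4 on at least 1 array.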
